A study of Mus musculus with 4 samples.

Results

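Glycolysis and the transcriptional response to low oxygen were followed through 33 genes in the epidermis of Irx5KO and WT mice. The genes were picked by name, with earlier results of these data known. They are 16 enzymes of glycolysis and lactate formation, 4 pyruvate dehydrogenase kinases, 3 PFKFB enzymes, 6 genes of oxygen sensing and 4 hypoxia targets. Each of the 33 symbols stood on 1 of the 23847 rows of the deposited table. Bulk RNA had been sequenced from whole back-skin epidermis at postnatal day 20, in 2 Irx5KO and 2 WT libraries. The Irx5KO mice are described in the labels only as Irx5-/-, with no word on the allele, strain or litter, and the WT mice as Irx5+/+. Skin of both genotypes had been held in 0.25% trypsin at 34 °C over 2 h before the epidermis was lifted off and filtered to a suspension of cells. The labels call the samples epithelial cells. With 2 libraries per genotype, the p-values rest on the spread between these samples, which the test partly borrows from other genes. Values are FPKM, a level scaled by transcript length and by mapped fragments, so genes of different length can be set side by side.

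At the depth estimated from the low values, 1 FPKM on a transcript of 2000 bases stood for 94.0 to 108 fragments per library. Irx5 itself measured 10.01 and 10.1 FPKM in the Irx5KO libraries, against 17.4 and 16.4 FPKM in the WT libraries (log2 fold change -0.70, SE 0.162, adjusted p = 0.0117). It was lower but far from 0 in the Irx5KO libraries, and since the allele is not described, its RNA level does not show whether functional Irx5 was lost. Both Irx5KO libraries carried Y-linked RNA and almost no Xist, and both WT libraries the reverse, so genotype and sex cannot be told apart anywhere in the comparison. Eif2s3y, for example, was at 70.9 and 75.7 FPKM in the Irx5KO libraries and at 0.0350 and 0.0422 FPKM in the WT libraries. Keratinocyte markers summed to 13950 and 14173 FPKM in the Irx5KO libraries and to 18867 and 16980 FPKM in the WT libraries, so the labelled tissue is borne out. Fibroblast, endothelial, skeletal muscle and adipocyte marker lists stayed between 0.853 and 6.65 FPKM in sum in each of the 4 libraries. Ckm, Adipoq, Cidec and Cdh5 were at or near 0, while Mylpf, at 5.08 and 4.44 FPKM in Irx5KO and 5.25 and 4.04 FPKM in WT, and Fabp4, at 2.66 and 4.12 FPKM in Irx5KO and 6.65 and 5.27 FPKM in WT, made up most of the muscle and adipocyte sums. Fbln1 was the 1 fibroblast marker tested, at 2.50 and 3.23 FPKM in Irx5KO and 1.55 and 2.08 FPKM in WT.

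Glycolysis turns glucose into pyruvate in the cytosol, and lactate dehydrogenase reduces the pyruvate to lactate. Pyruvate dehydrogenase kinases phosphorylate and switch off the enzyme complex that feeds pyruvate into the mitochondria. In oxygenated cells, prolyl hydroxylases mark the alpha subunits of the hypoxia-inducible factor (HIF), and the Vhl protein leads them to destruction. When oxygen falls, the subunits persist and raise the transcription of many glycolytic genes, of Vegfa and of other targets. Skin is a tissue of low oxygen tension with an active glycolysis, and the HIF system works largely through protein stability, which RNA levels do not show.

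HIF binds a short core whose letters are ACGTG or GCGTG, and 250 bases before the annotated start were searched for both on either strand. RefSeq promoters (GRCm38.p6) were matched for 31 of the 33 members, with 49 starts in all. Epas1 and Ndrg1 did not match. ACGTG occurred in 44.9% of the 49 member windows and in 16.6% of all 32851 promoter windows of the same length. Either core occurred in 79.6% of the member windows and 38.6% of all. Some windows of the same gene overlap and share matches, as for Aldoa, Eno1 and Pfkm, so a site can count more than once. Member windows were richer in G and C, with a median of 59.6% against 52.4% for all promoters, and both cores hold a CG. Each window printed is that of the most upstream RefSeq start of its gene and overlaps no annotated exon. The windows were chosen because they belong to the largest changes in both directions, and to Ldha, a classical HIF target whose level did not pass the test. They cover chr6:82774455-82774704 (Hk2, minus strand), chr17:46032378-46032627 (Vegfa, minus strand), chr2:71872974-71873223 (Pdk1, plus strand), chr11:95041372-95041621 (Pdk2, minus strand) and chr7:46845554-46845803 (Ldha, plus strand). Each runs 5′ to 3′ toward the start of its gene, and capitals mark every match to either core. A match is read as letters only, not as a bound site.
Hk2: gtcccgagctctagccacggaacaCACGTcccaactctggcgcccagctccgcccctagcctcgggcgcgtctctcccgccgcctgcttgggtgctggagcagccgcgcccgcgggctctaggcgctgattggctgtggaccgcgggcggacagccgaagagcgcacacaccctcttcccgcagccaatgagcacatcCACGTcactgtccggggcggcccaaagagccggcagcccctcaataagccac
Vegfa: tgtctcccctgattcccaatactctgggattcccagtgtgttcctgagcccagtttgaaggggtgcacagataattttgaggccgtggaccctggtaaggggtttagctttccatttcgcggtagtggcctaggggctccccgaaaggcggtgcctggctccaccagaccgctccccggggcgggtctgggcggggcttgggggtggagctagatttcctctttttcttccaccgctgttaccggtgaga
Pdk1: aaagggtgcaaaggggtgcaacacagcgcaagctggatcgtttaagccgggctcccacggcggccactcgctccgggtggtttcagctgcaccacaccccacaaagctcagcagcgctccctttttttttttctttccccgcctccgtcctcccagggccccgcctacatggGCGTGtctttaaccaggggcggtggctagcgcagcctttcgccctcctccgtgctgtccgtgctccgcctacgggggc
Pdk2: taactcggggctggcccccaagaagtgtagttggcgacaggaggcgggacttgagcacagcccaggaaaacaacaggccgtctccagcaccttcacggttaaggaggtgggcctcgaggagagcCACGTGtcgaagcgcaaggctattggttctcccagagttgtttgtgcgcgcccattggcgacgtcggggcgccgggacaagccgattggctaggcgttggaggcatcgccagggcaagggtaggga
Ldha: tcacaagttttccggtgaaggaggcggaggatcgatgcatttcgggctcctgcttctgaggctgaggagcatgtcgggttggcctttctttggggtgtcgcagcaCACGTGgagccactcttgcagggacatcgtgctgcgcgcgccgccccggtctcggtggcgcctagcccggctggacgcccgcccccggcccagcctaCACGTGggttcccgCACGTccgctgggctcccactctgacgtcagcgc
The Hk2 window held 2 matches of ACGTG, the Pdk1 window 1 of GCGTG, and the Vegfa window none. The Pdk2 window held the palindrome CACGTG once, which counts as ACGTG on both strands. The Ldha window, of a gene whose change did not pass, held the most of these windows, with 5 matches of ACGTG, most of them in 2 copies of CACGTG. Windows at other starts of the same genes read differently: a second Vegfa window, which overlaps annotated exons, held 1 ACGTG and 1 GCGTG, a second Pdk1 and a second Pdk2 window held neither core, and a second Ldha window held 1 GCGTG. In the genome (mm10, GENCODE M21) the genes themselves lie at chr6:82725025-82774454 (Hk2), chr17:46016993-46032369 (Vegfa), chr2:71873224-71903858 (Pdk1), chr11:95026258-95041354 (Pdk2) and chr7:46841475-46855627 (Ldha). The printed Ldha window thus lies inside the GENCODE span of its gene, downstream of the first annotated base. Among the printed windows, genes lower in Irx5KO and genes higher in Irx5KO both included some with a core.

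Most of the glycolytic chain did not pass the test between Irx5KO and WT, while its entry enzyme Hk2, 3 of the 4 kinases that gate pyruvate oxidation and several HIF targets differed, in both directions. Of the 33 members, all of which passed the filter on low values, 5 were above WT and 5 below it with an adjusted p under 0.05, and 23 did not pass (limma, 11643 rows tested). Higher members made up 15.2%, against 26.9% of all rows tested, and lower members 15.2%, against 9.22% of all rows. The genes higher in Irx5KO were Pdk1, Pdk2, Pfkfb2, Egln1 and Ankrd37, and the genes lower were Hk2, Vegfa, Ndrg1, Pdk4 and Pfkfb4. The median log2 change of the members was 0.14, beside 0.26 for all rows. That shift of all rows depends on scaling. It was 0.50 at a fixed sum, 0.39 with the 100 most abundant rows left out of the scaling and 0.082 under quantile normalization. Scaling by the median of ratios sets it near 0 by design, and 2 members were then higher and 9 lower. This is 6.06% and 27.3% of the members against 10.7% and 14.0% of all rows. Each of the 10 genes kept its direction under every one of the 14 alternatives in which it was tested. The libraries of the 2 genotypes did not overlap for 25 of the 33 members, or 75.8%, close to the 72.3% of all rows. In bulk tissue, fewer cells of one type and less RNA per cell cannot be told apart.

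**Figure D1:**
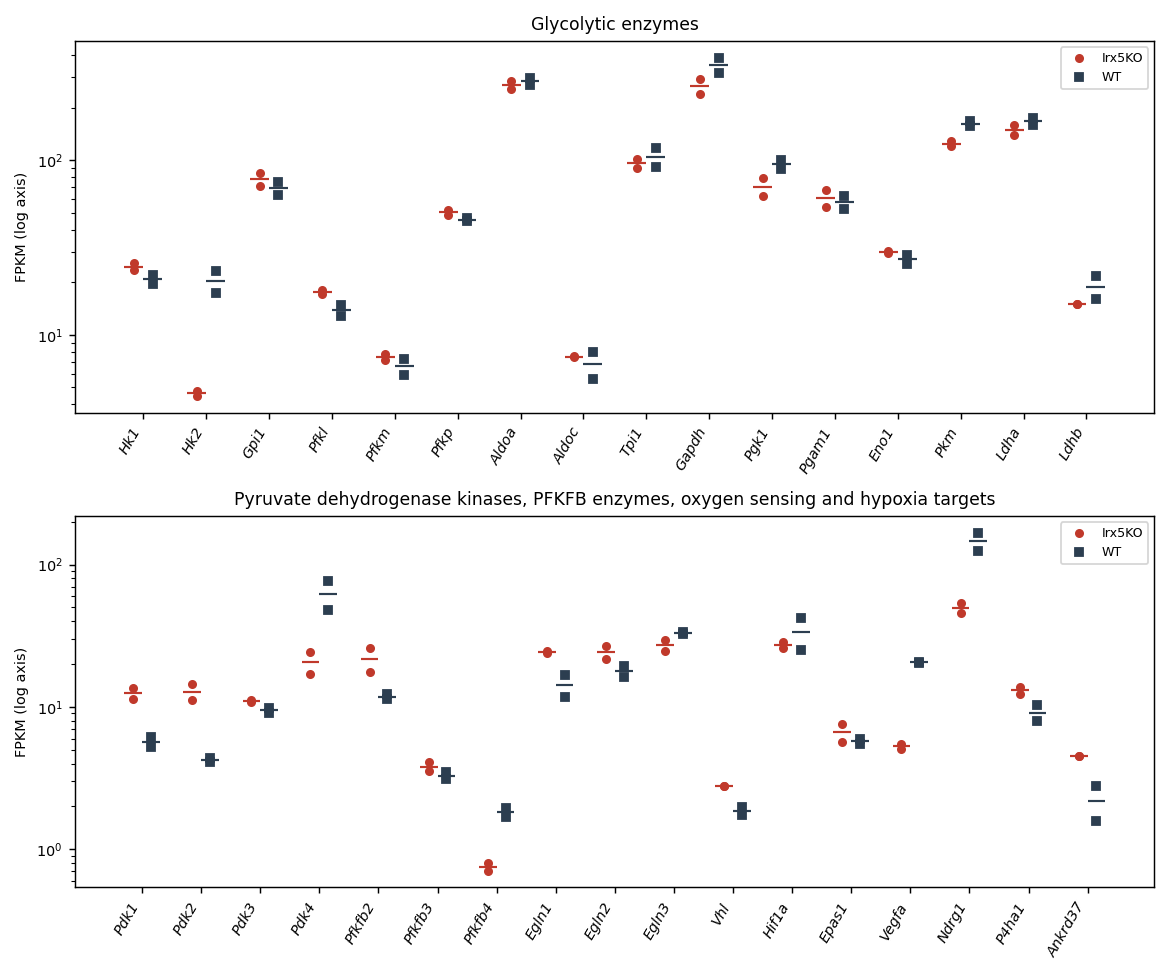
FPKM on a log axis of the 33 members, with Irx5KO libraries as red circles, WT libraries as dark squares and group means as short lines (n = 2 libraries per genotype). Among the glycolytic enzymes the genotypes lie close together except at Hk2, where Irx5KO is at 4.62 and WT at 20.4 FPKM on average, while the lower panel shows Pdk1 and Pdk2 higher and Pdk4, Pfkfb4, Vegfa and Ndrg1 lower in Irx5KO.

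Hexokinase traps glucose in the cell as glucose 6-phosphate, and Hk2 is its inducible, HIF-responsive form while Hk1 is the constitutive form. Hk2 was at 4.76 and 4.48 FPKM in the Irx5KO libraries and at 17.5 and 23.3 FPKM in the WT libraries. The groups lay far apart, and Irx5KO held 22.7% of the WT mean (log2 fold change -1.91, 95% interval -2.34 to -1.49, adjusted p = 2.08e-04). Hk1 was at 25.7 and 23.4 FPKM in the Irx5KO libraries and at 22.0 and 19.6 FPKM in the WT libraries, a difference that did not pass (0.23, adjusted p = 0.307). Hk2 therefore made up 15.6% and 16.1% of the summed Hk1 and Hk2 level in the Irx5KO libraries, against 44.2% and 54.4% in the WT libraries. Such a share is untouched by any scaling with 1 factor per library, though not by quantile normalization. The sum of both hexokinases was 30.5 and 27.9 FPKM in the Irx5KO libraries and 39.5 and 42.9 FPKM in the WT libraries.

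Below hexokinase no enzyme passed the test. The 16 enzyme rows together summed to 1193 and 1346 FPKM in the Irx5KO libraries and to 1533 and 1369 FPKM in the WT libraries. This was 0.265% and 0.263% of all FPKM in Irx5KO, against 0.254% in both WT libraries. Hk2 was the one enzyme of the 16 to pass the test, and none was higher. In percent 6.25% were lower and 0% higher, against 9.22% and 26.9% of all rows. The other 15 had log2 changes between -0.43 and 0.32, beside the median of 0.26 for all rows. The phosphofructokinase genes encode the committed step, and none of the 3 passed. Pfkl, the liver-type subunit, was at 17.96 and 17.1 FPKM in the Irx5KO libraries and at 14.7 and 12.9 FPKM in the WT libraries (adjusted p = 0.158). Pfkp, the platelet-type subunit, was the main form at 52.1 and 48.3 FPKM in Irx5KO and 46.8 and 44.6 FPKM in WT. It took 67.0% and 66.6% of the family in Irx5KO, against 68.0% and 70.4% in WT. Pfkm, the muscle-type subunit, overlapped between the genotypes, as did Gpi1, which interconverts the hexose phosphates, the aldolases Aldoa and Aldoc, the triose isomerase Tpi1 and the mutase Pgam1. In the same order their mean FPKM was 7.46, 77.8, 270, 7.51, 95.8 and 61.02 in Irx5KO, and 6.58, 68.9, 284, 6.77, 105 and 57.5 in WT.

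From glyceraldehyde phosphate to lactate, several abundant enzymes read lower in Irx5KO without passing. Gapdh, often used as a reference gene, was at 239 and 290.2 FPKM in the Irx5KO libraries and at 387 and 317 FPKM in the WT libraries (-0.41, adjusted p = 0.183). Pgk1, the first ATP-forming enzyme of the pathway and an X-linked gene, was at 62.1 and 79.0 FPKM in the Irx5KO libraries and at 89.0 and 101 FPKM in the WT libraries (-0.43, adjusted p = 0.115). Pkm, the pyruvate kinase, was at 121 and 128 FPKM in the Irx5KO libraries and at 168 and 156 FPKM in the WT libraries (-0.38, adjusted p = 0.141). For all 3 the Irx5KO values lay below the WT values, and all 3 passed as lower after scaling by the median of ratios (Gapdh adjusted p = 0.0376, Pgk1 0.0314, Pkm 0.0255). Under quantile normalization Gapdh turned to 0.15, with Pgk1 at -0.29 and Pkm at -0.098, and none of them passed. At a fixed sum none of them passed either (Gapdh -0.16, Pgk1 -0.19, Pkm -0.13). Eno1, the main enolase, was at 30.4 and 29.3 FPKM in the Irx5KO libraries and at 28.8 and 25.5 FPKM in the WT libraries. Ldha, which favours lactate formation, was at 140.2 and 158.2 FPKM in the Irx5KO libraries and at 175 and 158.6 FPKM in the WT libraries, so that the groups almost touched (-0.16, adjusted p = 0.537). Ldhb, the form richer in oxidative tissue, was at 14.99 and 15.1 FPKM in the Irx5KO libraries and at 16.1 and 21.6 FPKM in the WT libraries. Without WT replicate 1 it passed as lower (-0.49, adjusted p = 0.0336). Ldha took 90.3% and 91.3% of the pair in Irx5KO and 91.6% and 88.02% in WT. Gapdh, Pgk1, Ldha and other enzymes of this pathway have processed pseudogenes, and the sources used here do not say how the authors assigned shared reads.

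The pyruvate dehydrogenase kinases were the family that split most. Pdk1, a HIF target, was at 11.4 and 13.5 FPKM in the Irx5KO libraries and at 6.15 and 5.21 FPKM in the WT libraries (1.01, 95% interval 0.61 to 1.41, adjusted p = 0.00357). Pdk2, the broadly expressed form, was at 11.1 and 14.5 FPKM in the Irx5KO libraries and at 4.39 and 4.09 FPKM in the WT libraries (1.39, 95% interval 0.97 to 1.80, adjusted p = 9.60e-04). Both Irx5KO libraries exceeded both WT libraries, by 2.19-fold for Pdk1 and 3.02-fold for Pdk2 on the means. Pdk4, induced by fasting, FoxO factors and glucocorticoids, moved the other way. It was at 17.0 and 24.2 FPKM in the Irx5KO libraries and at 47.7 and 76.9 FPKM in the WT libraries (-1.53, 95% interval -2.11 to -0.95, adjusted p = 0.00288). The WT libraries differed between themselves, yet both lay above both Irx5KO libraries. Pdk3, an X-linked member of high basal activity, was at 10.8 and 11.1 FPKM in the Irx5KO libraries and at 9.04 and 9.87 FPKM in the WT libraries (0.19, adjusted p = 0.375). Pdk4 was the main kinase of the family in every library, at 33.8% and 38.2% of the summed level in Irx5KO against 70.9% and 80.04% in WT. Pdk2 took 22.1% and 22.9% in Irx5KO against 6.52% and 4.26% in WT. The 4 kinases summed to 50.3 and 63.3 FPKM in the Irx5KO libraries and to 67.2 and 96.03 FPKM in the WT libraries.

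**Figure D2:**
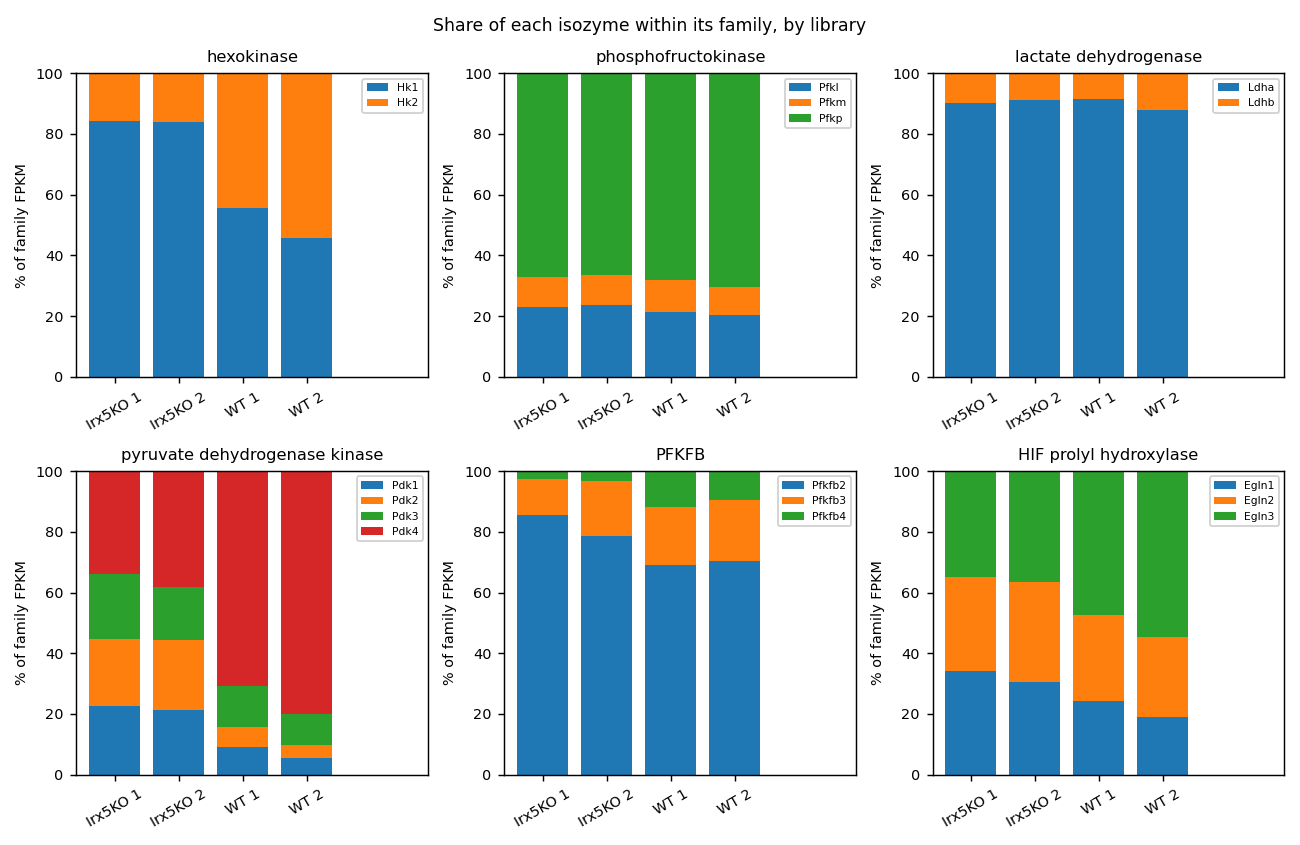
Stacked bars give the share of each isozyme in the summed FPKM of its family, in percent, for each Irx5KO and WT library. The hexokinase and pyruvate dehydrogenase kinase panels differ most, with Pdk4 at 33.8% and 38.2% in Irx5KO against 70.9% and 80.04% in WT, while the phosphofructokinase and lactate dehydrogenase shares stay close.

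PFKFB enzymes set the level of fructose 2,6-bisphosphate, the strongest activator of phosphofructokinase. Pfkfb2, a form regulated by phosphorylation, was at 25.8 and 17.6 FPKM in the Irx5KO libraries and at 11.3 and 12.3 FPKM in the WT libraries (0.80, adjusted p = 0.0168). Both Irx5KO libraries were above WT but differed from each other, and without Irx5KO replicate 1 the call was lost (0.54, adjusted p = 0.222). It was also lost after scaling by the median of ratios (0.52, adjusted p = 0.106). Quantile normalization lost it as well (0.62, adjusted p = 0.0837), while a fixed sum kept it (1.07, adjusted p = 0.00121). Pfkfb3, the form with the highest kinase activity, was at 3.53 and 4.09 FPKM in the Irx5KO libraries and at 3.10 and 3.47 FPKM in the WT libraries (adjusted p = 0.460). Pfkfb4, a strongly hypoxia-induced form, was at 0.803 and 0.709 FPKM in the Irx5KO libraries and at 1.96 and 1.68 FPKM in the WT libraries (-0.68, adjusted p = 0.0121). It met the filter of 1 FPKM through the WT libraries alone, and with no filter it was still lower (adjusted p = 0.0446). Without Irx5KO replicate 2 it no longer passed (-0.64, adjusted p = 0.0739). At 41.5% of the WT mean, its change is understated on the log2(FPKM + 1) scale. Yod1 overlaps Pfkfb2 on the opposite strand, at 4.20 and 3.83 FPKM in the Irx5KO libraries and 4.18 and 5.91 FPKM in the WT libraries, and strand-specific counting is not stated.

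Among the genes of oxygen sensing, the prolyl hydroxylase gene Egln1 was higher and no other passed. At a fixed sum Egln2 (0.67, adjusted p = 0.00873) and Vhl (0.67, adjusted p = 0.0235) also passed as higher. Egln1, the main oxygen sensor, was at 24.1 and 24.7 FPKM in the Irx5KO libraries and at 16.7 and 11.7 FPKM in the WT libraries (0.76, adjusted p = 0.0175). Without Irx5KO replicate 1 its change was as large but did not pass (0.78, adjusted p = 0.0614), and the same held without Irx5KO replicate 2 (0.74, adjusted p = 0.0706). The call was also lost after median of ratios scaling (0.47, adjusted p = 0.0871). It held under quantile normalization (0.60, adjusted p = 0.0475) and at a fixed sum (1.02, adjusted p = 5.84e-04). Egln2 was at 21.6 and 26.8 FPKM in the Irx5KO libraries and at 19.5 and 16.2 FPKM in the WT libraries (0.42, adjusted p = 0.108). It passed without WT replicate 1 (0.54, adjusted p = 0.0486). Egln3, itself a strongly HIF-induced hydroxylase, read the other way at 24.6 and 29.6 FPKM in the Irx5KO libraries and 32.7 and 33.8 FPKM in the WT libraries (-0.29, adjusted p = 0.218). It passed as lower after median of ratios scaling (adjusted p = 0.0425). Egln3 held 35.01% and 36.5% of the 3 hydroxylases in Irx5KO and 47.5% and 54.7% in WT, while Egln1 held 34.3% and 30.5% in Irx5KO and 24.2% and 19.02% in WT. Vhl, the substrate receptor that leads HIF to degradation, was at 2.78 FPKM in both Irx5KO libraries and at 1.98 and 1.74 FPKM in the WT libraries (0.40, adjusted p = 0.0802). The HIF subunits did not separate the genotypes. Hif1a was at 28.7 and 25.8 FPKM in the Irx5KO libraries and at 25.2 and 42.3 FPKM in the WT libraries, with both Irx5KO values between the WT values (adjusted p = 0.421). That wide WT pair decided its value: without WT replicate 1 Hif1a passed as lower (-0.62, adjusted p = 0.0214), and without WT replicate 2 its change was 0.11. Epas1, which encodes HIF-2 alpha, was at 7.58 and 5.69 FPKM in the Irx5KO libraries and at 5.45 and 5.99 FPKM in the WT libraries.

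The hypoxia targets split as well. Vegfa, the main growth factor of blood vessels, was at 5.50 and 5.06 FPKM in the Irx5KO libraries and at 20.3 and 20.8 FPKM in the WT libraries. The replicates nearly coincided within each genotype, Irx5KO held 25.7% of the WT mean, and the test gave the smallest p of all members (-1.78, 95% interval -2.15 to -1.41, adjusted p = 1.48e-04). Ndrg1, a stress- and differentiation-linked gene induced by hypoxia, was at 45.5 and 53.9 FPKM in the Irx5KO libraries and at 124 and 168 FPKM in the WT libraries (-1.53, adjusted p = 0.00117). Its groups were well apart, with 34.04% of the WT mean left in Irx5KO. P4ha1, a collagen prolyl hydroxylase, was at 12.4 and 13.7 FPKM in the Irx5KO libraries and at 10.3 and 7.91 FPKM in the WT libraries (0.48, adjusted p = 0.0683). It passed without WT replicate 1 (0.66, adjusted p = 0.0161). Ankrd37, a small HIF target, was at 4.54 and 4.55 FPKM in the Irx5KO libraries and at 2.77 and 1.57 FPKM in the WT libraries (0.83, adjusted p = 0.0152). It no longer passed after median of ratios scaling (0.61, adjusted p = 0.0510) or quantile normalization (0.54, adjusted p = 0.0708). At a fixed sum it passed (1.16, adjusted p = 0.00106). The span of Ankrd37 overlaps that of the more abundant Ufsp2 on the opposite strand, which was at 17.2 and 19.5 FPKM in the Irx5KO libraries and at 16.8 and 13.4 FPKM in the WT libraries. Strand-specific counting is not stated, so whether reads were shared is not known.

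**Figure D3:**
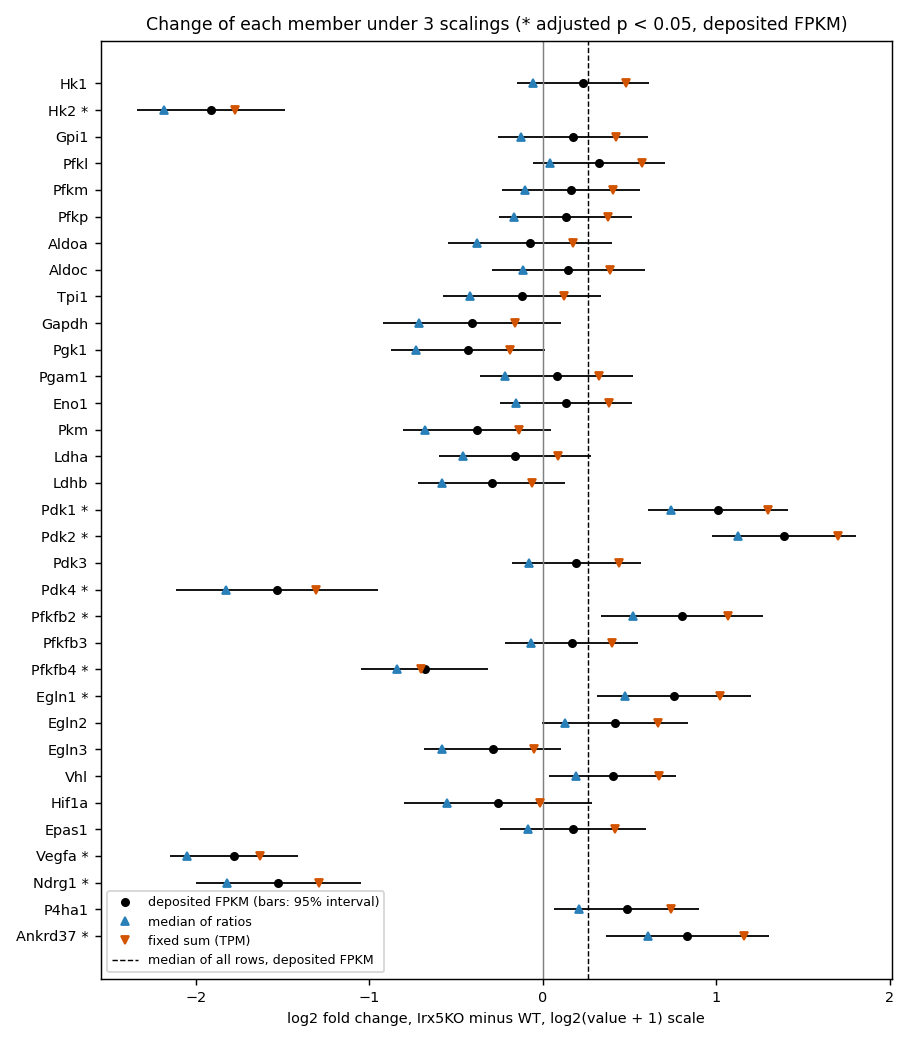
Log2 fold change of the 33 members (Irx5KO minus WT) on the log2(value + 1) scale, with black circles and 95% intervals for the deposited FPKM, blue triangles for median of ratios scaling and orange triangles for a fixed sum. An asterisk marks the 10 members past the threshold, and the dashed line is the median of all rows at 0.26. Hk2, Vegfa, Ndrg1 and Pdk4 lie far left and Pdk1 and Pdk2 right of 0 under all 3 scalings, whereas most glycolytic enzymes change sign with the scaling or stay near 0.

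Some carriers that move glucose and lactate across the membrane differed as well. Of 12 such genes 8 were tested, with 3 higher, 2 lower and 3 not passing (median 0.11). This is 37.5% higher and 25.0% lower, against 26.9% and 9.22% of all rows, over only 8 genes. Slc16a1, 1 of the lactate and pyruvate carriers, was at 2.02 and 2.14 FPKM in the Irx5KO libraries and at 9.29 and 15.8 FPKM in the WT libraries (-2.09, adjusted p = 4.37e-04). Slc2a1, the main glucose carrier of keratinocytes, was at 66.2 and 71.1 FPKM in the Irx5KO libraries and at 134 and 142 FPKM in the WT libraries (-0.997, adjusted p = 0.00400). Slc2a12, another glucose carrier, was at 23.3 and 21.9 FPKM in the Irx5KO libraries and at 9.15 and 7.59 FPKM in the WT libraries (1.34, adjusted p = 8.75e-04). Slc16a1 and Slc2a1 were thus below WT in both Irx5KO libraries, and Slc2a12 was above. The lactate carriers Slc16a3 and Slc16a7 did not pass (0.12 and 0.092, adjusted p = 0.614 and 0.671), and the glucose carrier Slc2a8 was higher (0.86, adjusted p = 0.00881). These 3 were named after their values were seen. Emb, a partner protein of lactate carriers, averaged 122 ± 14.9 FPKM in Irx5KO and 66.04 ± 1.36 FPKM in WT (SD, n = 2 each, adjusted p = 0.00819 by limma). The number of carriers that were higher was 1 without Irx5KO replicate 2.

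Other hypoxia-induced genes included large differences in both directions. The list holds Slc2a1 again, and Gys1, which is also counted with the glycogen genes. Of 31 further genes of this kind 25 were tested (median log2 change 0.11 beside 0.26 for all rows), with 7 higher, 7 lower and 11 not passing. In percent this is 28.0% higher and 28.0% lower, against 26.9% and 9.22% of all rows. The higher share is thus near that of all rows. The list was chosen with earlier results of these data known, so its shares describe the list only. Adm, the vasodilator adrenomedullin, was at 2.73 and 5.72 FPKM in the Irx5KO libraries and at 60.7 and 75.8 FPKM in the WT libraries (-3.78, adjusted p = 3.97e-05). Bhlhe40, a transcriptional repressor, was at 9.78 and 14.8 FPKM in the Irx5KO libraries and at 157 and 176 FPKM in the WT libraries (-3.68, adjusted p = 1.61e-05). Hilpda, which promotes lipid droplets, was at 4.74 and 4.03 FPKM in the Irx5KO libraries and at 29.3 and 33.3 FPKM in the WT libraries (-2.59, adjusted p = 3.01e-05). These genes differed far beyond their replicate spread. On the higher side stood Bnip3, Ddit4, Narf, Mxi1, Bnip3l, Kdm3a and Kdm4b, all but Bnip3 named after their values were seen. Bnip3, a mitophagy receptor, was at 44.9 and 52.9 FPKM in the Irx5KO libraries and at 11.9 and 11.1 FPKM in the WT libraries (2.00, adjusted p = 1.11e-04). Ddit4, an inhibitor of mTOR complex 1 that glucocorticoids induce, was at 126 and 179 FPKM in the Irx5KO libraries and at 47.4 and 34.6 FPKM in the WT libraries (1.86, adjusted p = 8.03e-04). The number higher was 3 after median of ratios scaling and also 3 without Irx5KO replicate 2.

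**Figure D4:**
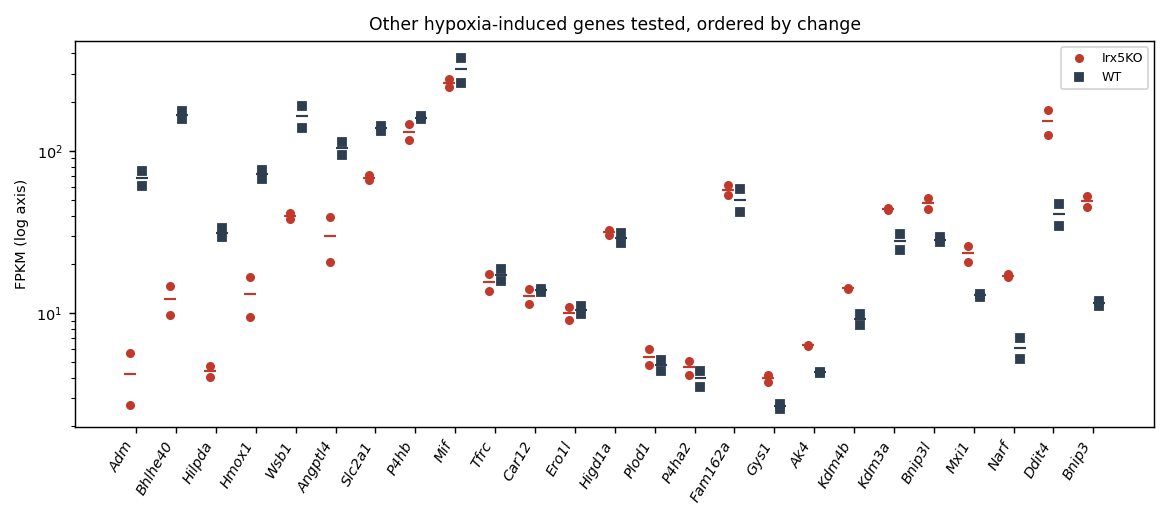
FPKM on a log axis of the 25 further hypoxia-induced genes that were tested, ordered by their change, with Irx5KO libraries as red circles, WT libraries as dark squares and group means as short lines (n = 2 libraries per genotype). Genes at the left such as Adm and Bhlhe40 are lower in Irx5KO, genes at the right such as Ddit4 and Bnip3 are higher, and those between show smaller differences.

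The partners and regulators of HIF gave 2 higher and 1 lower of 11 tested, or 18.2% and 9.09%, no more than the 26.9% and 9.22% of all rows. Siah2, a ubiquitin ligase for the prolyl hydroxylases, was at 2.51 and 4.12 FPKM in the Irx5KO libraries and at 14.4 and 18.5 FPKM in the WT libraries (-2.03, adjusted p = 3.90e-04). Hif1an, an asparagine hydroxylase that blunts HIF activity, was at 12.3 and 10.99 FPKM in the Irx5KO libraries and at 6.51 and 7.40 FPKM in the WT libraries (0.67, adjusted p = 0.0166). Rbx1, a subunit of cullin ubiquitin ligases, averaged 30.3 ± 2.97 FPKM in Irx5KO and 20.8 ± 2.53 FPKM in WT (SD, n = 2 each, adjusted p = 0.0458 by limma). Neither call held without Irx5KO replicate 1, without Irx5KO replicate 2 or after median of ratios scaling, where 0 genes of the list were higher, and without WT replicate 1 the number lower was 3.

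Routes that branch from or follow glycolysis were read against the 26.9% of all rows that were higher and the 9.22% that were lower. All 16 genes of the tricarboxylic acid cycle were tested and none passed in limma, with log2 changes between -0.16 and 0.29, and 0 had an unadjusted p under 0.05. Of 10 genes of pyruvate entry into mitochondria 1 was higher, Pdpr, a regulatory subunit of pyruvate dehydrogenase phosphatase, at 5.67 and 3.91 FPKM in the Irx5KO libraries against 1.38 and 1.39 FPKM in the WT libraries (1.26, adjusted p = 0.00187). Without WT replicate 1 the count was 2. Of 7 pentose phosphate genes 1 was higher, the X-linked G6pdx, which starts the pathway, at 19.2 and 22.4 FPKM in the Irx5KO libraries against 13.5 and 11.1 FPKM in the WT libraries (0.72, adjusted p = 0.0155). None was higher without Irx5KO replicate 2 or after median of ratios scaling, where 2 were lower. Without WT replicate 1 the count higher was 2, and without WT replicate 2 there was 1 lower. Of 9 tested glycogen genes none passed in limma. The synthase Gys1 was at 4.16 and 3.79 FPKM in Irx5KO and 2.76 and 2.56 FPKM in WT (0.44, adjusted p = 0.0633). Pck2, the mitochondrial phosphoenolpyruvate carboxykinase, was the 1 of 4 tested genes of gluconeogenesis to pass, at 4.57 and 5.33 FPKM in Irx5KO and 2.61 and 1.77 FPKM in WT (0.91, adjusted p = 0.00749). Of 18 further glycolytic isozymes and related enzymes 9 were tested, and Tigar, Eno3 and Adpgk were higher, or 33.3%, with log2 changes of 0.60, 0.66 and 0.57. Tigar, which lowers fructose 2,6-bisphosphate, was at 2.96 and 2.84 FPKM in the Irx5KO libraries and at 1.98 and 1.23 FPKM in the WT libraries. Without Irx5KO replicate 1, without Irx5KO replicate 2, without WT replicate 2 and after median of ratios scaling 0 genes of the list were higher, and 4 were higher without WT replicate 1. None was lower as reported, and 1 was lower without WT replicate 1, without WT replicate 2 and after median of ratios scaling.

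Other differences between the libraries ran alongside these, and their counts stand beside 26.9% of all rows higher and 9.22% lower. Immediate-early genes, which tissue dissociation can induce, summed to 2861 and 5394 FPKM in the Irx5KO libraries and to 14264 and 13210 FPKM in the WT libraries, and 16 of 18 were lower. Of 7 Langerhans cell and macrophage markers 3 were lower, Cd207, H2-Ab1 and Cd74, while Csf1r (0.20), Ptprc (0.050), Adgre1 and H2-Aa did not pass. The list summed to 252 and 340.04 FPKM in Irx5KO and 1017 and 551 FPKM in WT. Part of that WT spread is H2-Aa, at 196 and 32.4 FPKM in the WT libraries. Erythroid markers summed to 48.5 and 89.1 FPKM in Irx5KO and 121 and 220 FPKM in WT, with 2 of 2 tested lower. Of 10 keratinocyte markers 1 was lower, Krt14, and 1 higher, Trp63. T cell markers overlapped between the genotypes, with none of 5 passing, and 1 of 4 tested melanocyte markers, Dct, was lower, as was the 1 tested adipocyte marker, Fabp4. The part of these differences in the values of Hk2, Vegfa, Ndrg1, Pdk4 and the other members was not tested.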

How the data were processed

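Bulk RNA-seq of epidermis was available as 1 deposited table of FPKM values by the authors, with a column per library (2 Irx5KO, 2 WT). Bowtie2, DESeq2 and mm10 are named in the submitters' processing notes, while the step to FPKM is not given in the sources used here. Depth was estimated from steps of whole fragments in low values of single-transcript genes, taking fragments as 200 bases long. Between 68.3% and 70.5% of them were whole within 0.1, against 20.0% by chance. No count model was run.

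Members and lists were chosen with earlier results of these data known. Rows with at least 1 FPKM in at least 2 libraries, 11643 in all, were tested with limma 3.58.1 in R 4.3.3 on log2(FPKM + 1), where fold changes of low genes are understated, with an intensity trend, 2-sided, with p-values adjusted by Benjamini-Hochberg across the tested rows and called under 0.05. The code was tested on simulated data. All members are named. Of other lists up to 4 genes of smallest p are named, and exceptions are said. A gene of the hypoxia list is not reported here and was left out of its counts. An exact permutation of 2 against 2 libraries cannot go below p = 0.333, so single genes have no permutation test. Promoters are RefSeq windows. Gene symbols missing from the table were matched through RefSeq synonyms (Tigar, Eloc, Elob, Adgre1 and Hbb-bs), and Trdc and Hbb-bt did not match. Alternatives were another pseudocount, other filters, 4 scalings, other variance priors, the replicate number as a block and leaving out each library. The deposited FPKM columns were not rescaled for the main values.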

Additional observations from a re-analysis of the deposited data

How the results depend on the processing

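With 2 libraries per genotype, the spread is thinly measured, and the scaling cannot be checked against an outside standard. Where a library is left out, the lone library of its genotype is assumed to vary like the other genotype. The number of members higher in Irx5KO was 5 as reported, 2 with no filter, 2 under median of ratios, 3 under quantile normalization, 10 at a fixed sum (TPM) and 9 when the 100 most abundant rows were left out of the scaling. It ranged from 3 to 7 when 1 library was left out. The number lower was 5 as reported and 9 under median of ratios, and ranged from 4 to 7 when 1 library was left out. The median change of the members was -0.16 under median of ratios, 0.38 at a fixed sum and 0.29 without the 100 most abundant rows, with a range of 0.048 to 0.14 over left-out libraries. The cause was not tested. The replicate block, which gives the replicate number its own term, left 5 higher and 5 lower members. Same-numbered libraries did not deviate together (correlation -0.0674 across genes), so the block is not read as a pairing, and it changed no call of a member. With it 1 of the HIF partners was higher, against 2 without, and 1 glycogen gene against 0. Over all rows, the counts higher and lower were 3127 and 1073 as reported, 1250 and 1626 under median of ratios, 5577 and 875 at a fixed sum, 1516 and 1313 under quantile normalization, 4796 and 947 without the 100 most abundant rows, 1289 and 712 with no filter, 1898 and 793 in rows averaging 5 FPKM or more. With Irx5KO replicate 1 left out they were 1457 and 725, and with Irx5KO replicate 2 left out 1592 and 872.

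No member past the threshold changed sign. With no filter Pdk4, Pfkfb2, Egln1 and Ankrd37 no longer passed (adjusted p = 0.0545, 0.0842, 0.0776 and 0.0985). At a fixed sum Hk1, Pfkl, Egln2, Vhl and P4ha1 passed as higher (adjusted p = 0.0492, 0.0254, 0.00873, 0.0235 and 0.00811). All of these but Hk1 also passed when the 100 most abundant rows were left out of the scaling. Members that had not passed changed sign in 31 cases. Under median of ratios these were Hk1 at -0.059, Gpi1 at -0.13, Pfkm at -0.10, Pfkp at -0.16, Aldoc at -0.12, Pgam1 at -0.22, Eno1 at -0.16, Pdk3 at -0.082, Pfkfb3 at -0.071 and Epas1 at -0.087. Under quantile normalization they were Pfkm at -0.13, Aldoa at 0.43, Aldoc at -0.15, Tpi1 at 0.096, Gapdh at 0.15, Ldha at 0.12, Pdk3 at -0.060, Pfkfb3 at -0.13 and Epas1 at -0.12. At a fixed sum they were Aldoa at 0.17, Tpi1 at 0.12 and Ldha at 0.086, and without the 100 most abundant rows Aldoa at 0.083 and Tpi1 at 0.036. Over left-out libraries the range was -0.15 to 0.0035 for Aldoa, -0.076 to 0.37 for Aldoc, -0.30 to 0.060 for Tpi1, -0.078 to 0.24 for Pgam1, -0.62 to 0.11 for Hif1a and -0.0058 to 0.35 for Epas1. Glycolytic enzymes lower numbered 4 by median of ratios and 2 with WT replicate 1 left out, against 1 as reported, and those higher numbered 2 at a fixed sum.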
